A study of Homo sapiens with 8 samples.

Results

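The genes described here are those of the cytosolic DNA sensing pathway that were looked up by name in an RNA-seq table of EndoC-βH5 cells, namely CGAS, STING1, IFI16, SAMHD1, TBK1 and IKBKE. Of these 6 genes, 3 had a row among the 16525 genes of the table: SAMHD1, TBK1 and IKBKE. CGAS, STING1 and IFI16 had no row under their symbol or their Ensembl identifier and were not analysed here. EndoC-βH5 is a human beta-cell line from fetal pancreas that was immortalized with SV40LT and hTERT and later de-immortalized, so control and treated cells share that history and stand for 1 line. Cells were left untreated (4 control libraries) or exposed to IL-1β, IFNγ and TNFα together (4 cytokine libraries) for 48 h. The letters A to D mark control and cytokine libraries whose columns share a name stem, and the column names of A and B share a middle part that differs from the one shared by C and D. The labels do not say which libraries came from separate cultures, so p-values measure the spread between these samples, which may be technical.

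Double-stranded DNA in the cytosol is bound by cGAS, which makes the cyclic dinucleotide cGAMP. cGAMP binds STING in the endoplasmic reticulum, STING moves to the Golgi and recruits the kinase TBK1 and its relative IKKε, and these phosphorylate transcription factors such as IRF3 that switch on interferon genes. SAMHD1 breaks down deoxynucleoside triphosphates and limits DNA synthesis, and its loss in humans is known for a chronic interferon response. Pro-inflammatory cytokines are used on beta cells to mimic the immune attack of type 1 diabetes, and the comparison asks how the measured genes of this pathway differed with that exposure.

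The 3 genes lie on different chromosomes. SAMHD1 (ENSG00000101347) is on the minus strand at chr20:36889773-36951901, TBK1 (ENSG00000183735) on the plus strand at chr12:64451880-64502108 and IKBKE (ENSG00000263528) on the plus strand at chr1:206470476-206496889 (GRCh38, GENCODE). The sequences upstream of SAMHD1 and IKBKE are shown because the start regions of the 3 genes differed in CpG content, and they are limited to the stretch outside any annotated exon. The IKBKE stretch is chr1:206470226-206470475 on the plus strand and the SAMHD1 stretch is chr20:36951902-36951958 on the minus strand (RefSeq, GRCh38.p14). CpG dinucleotides are in capitals.
IKBKE: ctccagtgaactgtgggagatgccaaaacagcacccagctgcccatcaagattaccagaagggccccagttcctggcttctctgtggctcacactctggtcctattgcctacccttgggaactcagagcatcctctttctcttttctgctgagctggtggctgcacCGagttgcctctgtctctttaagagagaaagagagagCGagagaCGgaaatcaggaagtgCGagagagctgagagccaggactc
SAMHD1: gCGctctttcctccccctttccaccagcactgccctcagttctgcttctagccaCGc
In the 250 bases before the RefSeq start, 4 CpG were counted for IKBKE, 14 for SAMHD1 and 27 for TBK1, against a median of 11 over 35116 such windows. The GC content of these windows was 54.0% for IKBKE, 64.0% for SAMHD1 and 66.8% for TBK1, with a median of 58.0% over all windows. The window of TBK1 lies within an annotated exon and is not printed. For SAMHD1, the longest stretch of the window outside annotated exons was the 57 bases printed, which hold 2 of its 14 CpG. Searched on both strands, the interferon-stimulated response core (GAAA, any 2 bases, GAAA) was in 3.02% of all windows. The STAT element TTCNNNGAA was in 6.57% and the NF-κB element in 5.21%. None of these 3 elements was matched in the windows of SAMHD1, TBK1 or IKBKE, and sequence outside the windows was not searched.

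Libraries held 36577438 to 40117636 reads on the listed genes, and 1 read was worth 0.0196 to 0.0214 CPM, the deposited unit of reads scaled to library size. Against the control libraries, 9.52% of all genes were called higher with cytokines and 17.5% lower (limma on log2(CPM + 0.1), absolute log2 fold change above 0.5 and false discovery rate (FDR) below 0.05). Over all genes the median change was −0.17 log2 units on the CPM scale and −0.02 after TMM scaling, so TMM-scaled values are given where the call was lost with them. Beta-cell markers were all listed, with INS at 2169 ± 744 CPM in control and 1846 ± 322 CPM in cytokine libraries (SD, n = 4). Of 13 leukocyte markers, 2 were listed (CD14 and AIF1), summing to 2.20 to 6.47 CPM in control and 1.64 to 2.62 CPM in cytokine libraries, while PTPRC, CD68 and LYZ had no row. Of these, AIF1 was called lower (log2 fold change −1.51, limma adjusted p = 0.00526) and CD14 was not called. None of 4 endothelial markers was listed. The summed level of 2 listed fibroblast and stellate markers was 3.56 to 5.30 CPM in control and 4.29 to 6.41 CPM in cytokine libraries. The 2 listed exocrine markers, CPA1 and KRT19, summed to 88.2 to 167 CPM in control and 84.6 to 166 CPM in cytokine libraries. KRT19 made up most of that sum and was not called, whereas CPA1 was called lower, from 8.41 ± 0.693 to 4.04 ± 0.924 CPM (SD, n = 4, limma adjusted p = 0.00201). The part of these markers in the results below was not tested. In such bulk libraries, fewer cells of a type and less RNA per cell cannot be told apart.

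All 3 measured genes were called higher in cytokine-treated cells, with SAMHD1 up 6.0-fold and the kinases TBK1 and IKBKE up 1.49-fold and 1.53-fold. Over all genes, 9.52% were called higher. Both kinases lost their call within libraries C and D and with some single libraries left out, and the groups overlapped for IKBKE. All 3 stood above the authors' minimum of 0.5 CPM in each of the 8 libraries, so none entered the table through the cytokine group alone.

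SAMHD1, the deoxynucleotide hydrolase, measured 37.8, 32.7, 39.1 and 33.2 CPM in control libraries A to D. It measured 218, 223, 216 and 200 CPM in cytokine libraries A to D. The lowest cytokine library was therefore far above the highest control library, and the groups did not overlap (over all genes, 10.8% had separate ranges with cytokines higher and 21.9% with cytokines lower). The mean rose from 35.7 ± 3.22 CPM to 214 ± 10.1 CPM (SD, n = 4), which is a log2 fold change of 2.59 (SE 0.11, 95% interval 2.35 to 2.82, limma adjusted p = 3.36e-08), with a 2-sided exact permutation p of 0.0286, the smallest that 4 against 4 libraries can give. Counting rested on 1546 to 1965 reads per control library and 9947 to 10722 reads per cytokine library. SAMHD1 ranked 254 of 16525 genes by log2 fold change. Its control level lay above that of 72.6% of genes, and its cytokine level above that of 97.2% of genes. The difference within each pair of libraries was 2.53 for A, 2.77 for B, 2.46 for C and 2.59 for D on the log2 scale. The gene was also the least variable of the 3 within groups, with a coefficient of variation of 9.01% among control and 4.71% among cytokine libraries. The exons of SAMHD1 overlap those of TLDC2 on the opposite strand over 1159 bases, and reads were counted with default htseq-count settings, which use strand, on libraries from a strand-specific kit. TLDC2 was listed at 6.95 ± 1.01 CPM in control and 2.84 ± 0.474 CPM in cytokine libraries (SD, n = 4, log2 fold change −1.27), so it was lower in the libraries where SAMHD1 was higher. The study's methods do not say which strand the kit reads, and the part of this overlap in the counts of either gene was not tested. Antisense exons also overlap TBK1 (over 702 bases) and IKBKE (over 156 bases), and these antisense genes were not analysed here.

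**Figure D1:**
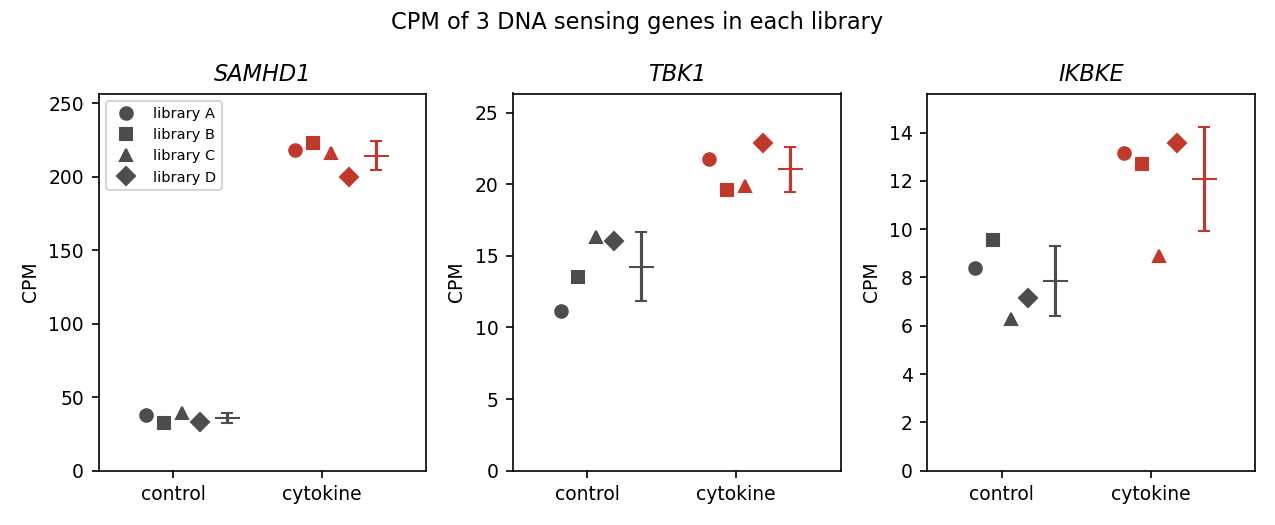
CPM of SAMHD1, TBK1 and IKBKE in each library (y axis, linear from 0 and scaled per gene), with control libraries in grey and cytokine libraries in red, marker shapes for the name stems A to D, and mean ± SD of 4 libraries at the right of each group. The groups are separate for SAMHD1 (up to 39.1 against at least 200 CPM) and TBK1 (up to 16.3 against at least 19.6 CPM) and overlap for IKBKE.

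TBK1 encodes the serine/threonine kinase that STING recruits and that phosphorylates IRF3. It measured 11.1, 13.5, 16.3 and 16.0 CPM in control libraries A to D and 21.8, 19.6, 19.9 and 22.9 CPM in cytokine libraries A to D. The groups did not overlap, with a gap from 16.3 to 19.6 CPM, and control libraries A and B lay below C and D. The mean rose from 14.3 ± 2.42 to 21.1 ± 1.56 CPM (SD, n = 4), which is a log2 fold change of 0.57 (SE 0.15, 95% interval 0.24 to 0.90, limma adjusted p = 0.0142; 2-sided exact permutation p = 0.0286). All 4 pairs were higher with cytokines, by 0.96, 0.53, 0.28 and 0.51 on the log2 scale for A to D. Within libraries A and B the log2 fold change was 0.75 (limma adjusted p = 9.4e-05), and within C and D it was 0.40 (limma adjusted p = 0.144), which did not pass. The difference between these sets was −0.35 (SE 0.22, limma interaction, adjusted p = 0.999), where 0.0303% of all genes passed. Between the sets C, D and A, B themselves, TBK1 differed by 0.22 (limma adjusted p = 0.155) and IKBKE by −0.32 (limma adjusted p = 0.0934) on the log2 scale, and 37.4% of all genes passed this test. Without control library A the log2 fold change was 0.46, under the 0.5 required for a call, with a limma adjusted p of 0.0309.

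IKBKE encodes IKKε, the kinase closest to TBK1, which shares several of its adaptors. It measured 8.40, 9.57, 6.27 and 7.14 CPM in control libraries A to D and 13.2, 12.7, 8.88 and 13.6 CPM in cytokine libraries A to D. The groups overlapped, since cytokine library C (8.88 CPM) lay below control library B (9.57 CPM), although each cytokine library was above its own paired control. The mean rose from 7.84 ± 1.44 to 12.1 ± 2.16 CPM (SD, n = 4), which is a log2 fold change of 0.61 (SE 0.19, 95% interval 0.20 to 1.03, limma adjusted p = 0.0299; 2-sided exact permutation p = 0.0571). The pair differences were 0.64, 0.40, 0.49 and 0.92 on the log2 scale for A to D. Leaving out 1 library ended the call in 5 of 8 cases, with limma adjusted p of 0.0685 without control C, 0.0750 without control D, 0.0824 without cytokine A, 0.0740 without cytokine B and 0.0815 without cytokine D. Within A and B the log2 fold change was 0.52 (limma adjusted p = 0.0061) and within C and D it was 0.71 (limma adjusted p = 0.0776).

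The 95% interval of the SAMHD1 log2 fold change (2.35 to 2.82) lay above those of TBK1 (0.24 to 0.90) and IKBKE (0.20 to 1.03), which overlapped each other. TMM scaling raised each of the 3 values, to 2.74 for SAMHD1, 0.72 for TBK1 and 0.77 for IKBKE, and all 3 were called with it. Fits on the reads recovered from the CPM values also called all 3, with edgeR log2 fold changes of 0.72 for TBK1 (adjusted p = 0.00118) and 0.76 for IKBKE (adjusted p = 0.0198). edgeR called 13.0% of all genes higher and 11.6% lower.

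**Figure D2:**
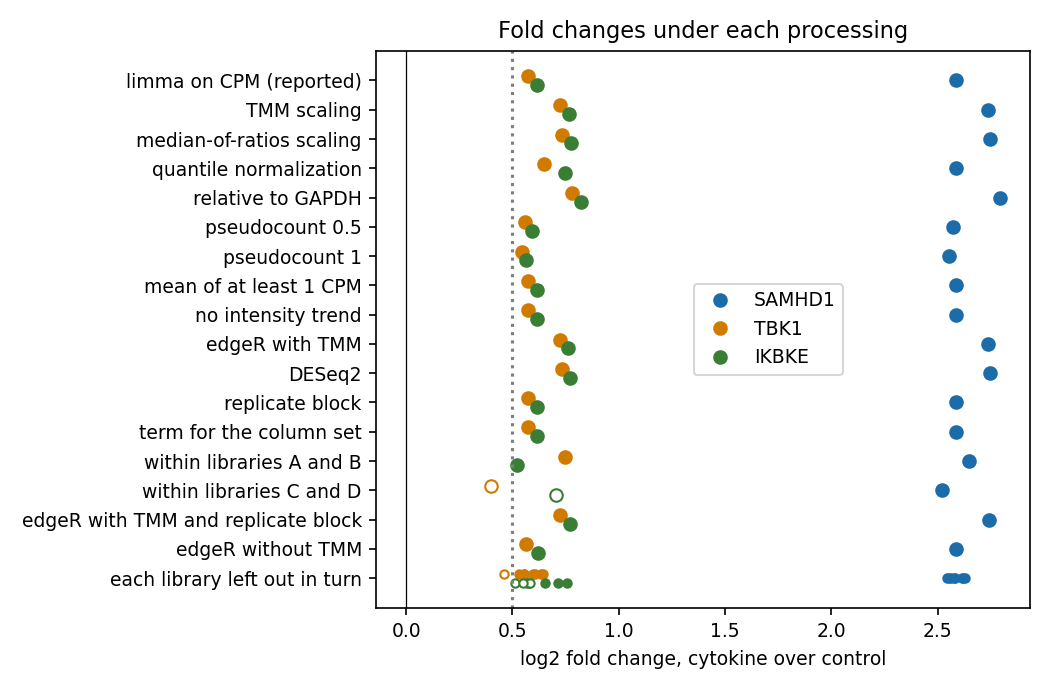
Log2 fold change of cytokine over control (x axis) for SAMHD1, TBK1 and IKBKE under each processing (y axis), with filled points where the gene was called and open points where it was not; the dotted line is the 0.5 needed for a call. SAMHD1 stays between 2.52 and 2.79 in the named settings, and the open points are TBK1 and IKBKE within libraries C and D and with single libraries left out.

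Levels between the genes were compared per length, as TPM, the share of transcripts after dividing reads by gene length, over the annotated exon bases. In control libraries SAMHD1 stood at 12.2 ± 2.13 TPM, TBK1 at 11.7 ± 3.46 TPM and IKBKE at 7.80 ± 0.673 TPM (SD, n = 4). The ranges of SAMHD1 and TBK1 overlapped, as did those of TBK1 and IKBKE, whereas those of SAMHD1 and IKBKE did not. In cytokine libraries the order was SAMHD1 at 78.8 ± 6.56 TPM, TBK1 at 18.4 ± 3.03 TPM and IKBKE at 13.2 ± 2.63 TPM (SD, n = 4). SAMHD1 was then 4.33 ± 0.487 times the TPM of TBK1 with no overlap of ranges, and TBK1 and IKBKE still overlapped. With the longest transcript in place of all exon bases, the control ratio of SAMHD1 to TBK1 moved from 1.09 ± 0.241 to 1.52.

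The ratio of IKBKE to TBK1 within a library does not depend on scaling. Its log2 value in CPM was −0.40, −0.50, −1.37 and −1.15 in control libraries A to D and −0.72, −0.63, −1.15 and −0.75 in cytokine libraries A to D. Control libraries thus spread more widely than the groups differed. The mean was −0.86 ± 0.48 in control and −0.81 ± 0.23 in cytokine libraries (SD, n = 4), a difference of 0.04 (2-sided exact permutation p = 0.943, the same after adjustment over the 2 ratios tested). The sets went opposite ways: the difference was −0.22 within A and B and 0.31 within C and D, and this contrast was not tested. The planned ratio of STING1 to CGAS could not be computed because neither gene had a row.

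The nucleotide supply genes, which make the substrates that SAMHD1 removes or control its activity, were called lower for 7 and higher for 1 of 13 genes, with 5 not called and a median log2 fold change of −0.70. That is 53.8% lower and 7.69% higher, beside 17.5% and 9.52% of all genes. RRM2, the regulated subunit of ribonucleotide reductase, fell from 37.2 ± 21.4 to 11.5 ± 7.01 CPM (log2 fold change −1.71, SE 0.41, limma adjusted p = 0.0091; SD, n = 4). CCNA2, the cyclin A that pairs with the kinases that phosphorylate SAMHD1, fell by 1.48 on the log2 scale. TK1, the S-phase thymidine kinase, fell by 1.29 on the log2 scale, with overlapping ranges. CDKN1A, an inhibitor of those cyclin-dependent kinases, rose from 109 ± 22.1 to 230 ± 81.9 CPM (log2 fold change 1.04; SD, n = 4). RRM1, the large subunit of ribonucleotide reductase, was at −0.81 (limma adjusted p = 0.0847) and was not called, while the fit that kept the pairs A to D as a block called it lower (adjusted p = 4.09e-06). That blocked fit called 11.6% of all genes higher and 23.8% lower. Library D was the highest of its group for RRM2, CCNA2 and TK1 in both conditions, and the coefficient of variation of RRM2 was 57.4% among controls, against 9.01% for SAMHD1.

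The log2 ratio of SAMHD1 to RRM1 was 0.50, 0.16, −0.55 and −1.01 in control libraries A to D and 3.48, 3.77, 2.86 and 2.55 in cytokine libraries A to D. The lowest cytokine library was above the highest control library. The mean was −0.23 ± 0.68 in control and 3.17 ± 0.56 in cytokine libraries (SD, n = 4), a difference of 3.39 (2-sided exact permutation p = 0.0286), and the p adjusted over the 2 ratios was 0.0571. The SAMHD1 rise of 2.59 makes up most of this difference, and RRM1 was not called. The ratio is therefore not a separate result about nucleotide supply.

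**Figure D3:**
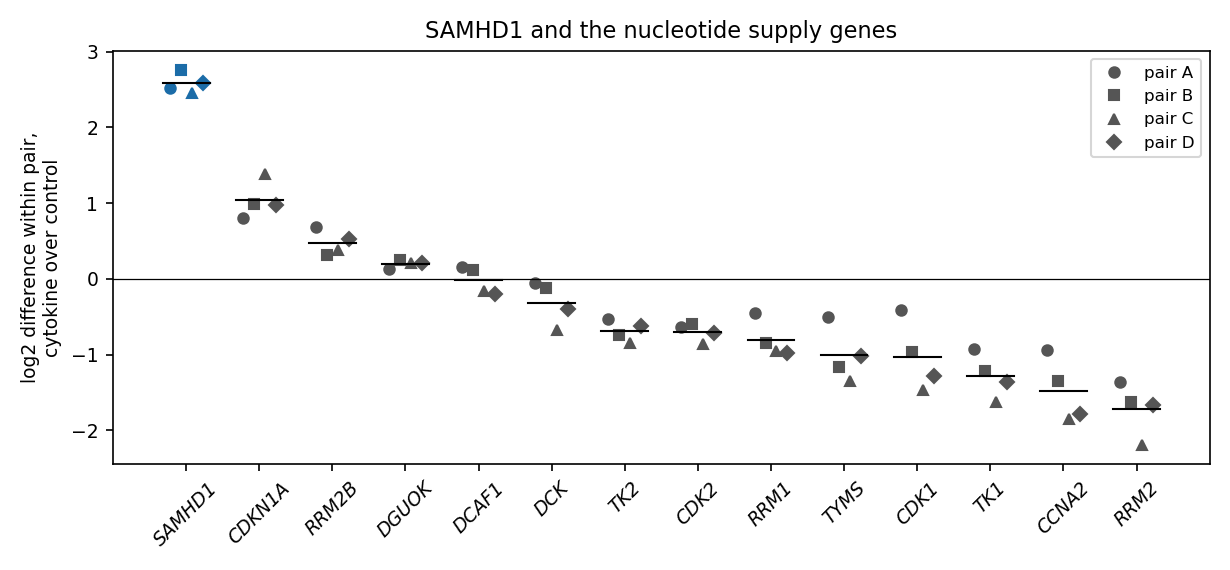
Log2 difference of cytokine over control within each pair of libraries (y axis) for SAMHD1 in blue and the 13 nucleotide supply genes in grey (x axis), with marker shapes for pairs A to D and a line at the log2 fold change. SAMHD1 lies between 2.46 and 2.77 in the 4 pairs, whereas RRM2, CCNA2 and TK1 lie below 0 in each pair.

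Of 106 further genes of the pathway, 92 had a row. Among these, 16 were called higher and 17 lower with a median log2 fold change of −0.06 (−0.17 over all genes), and with TMM scaling 19 were higher and 9 lower. As a share without TMM scaling, 17.4% of the listed genes were higher and 18.5% lower, beside 9.52% and 17.5% of all genes. With that scaling, 2154 of all 16525 genes were higher and 1933 lower. The higher counts and share include OASL, which met the minimum of 0.5 CPM through the cytokine libraries alone and so had to differ. Of 15 other DNA sensors, 5 had no row and were not analysed here. None of the 10 with a row was called by limma, by limma with TMM scaling or by edgeR, and 1 of them had an unadjusted limma p below 0.05. That gene was DDX41, a helicase reported to bind DNA, which was at 66.6 ± 5.04 CPM in control and 52.3 ± 5.24 CPM in cytokine libraries (SD, n = 4, log2 fold change −0.35, limma adjusted p = 0.0399, under the 0.5 required).

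Among proteins that remove DNA or cGAMP, 2 of 8 were called lower and none higher by limma (3 lower and 0 higher at an unadjusted p below 0.05; 0 of 8 either way by edgeR). The limma share was 25% lower, beside 17.5% of all genes. By edgeR, 13.0% of all genes were higher and 11.6% lower. No share over all genes is given for the counts at an unadjusted p, so they are not read as results. DNASE1, a secreted deoxyribonuclease, was at −0.58, and RNASEH2C, a subunit of the nuclease that cuts RNA in RNA-DNA hybrids, at −0.59. After TMM scaling both were at −0.43 and not called (limma adjusted p = 0.056 for DNASE1 and 0.0989 for RNASEH2C). Of 7 genes for cGAMP transport, 3 were called lower and none higher by limma (5 lower and 1 higher at an unadjusted p below 0.05; 2 lower and 1 higher by edgeR). The limma share was 42.9% lower, beside 17.5% of all genes. SLC46A1, a folate transporter, fell from 47.2 ± 4.47 to 28.1 ± 3.94 CPM (log2 fold change −0.75, SD, n = 4). LRRC8D, a subunit of the volume-regulated anion channel, fell from 16.1 ± 3.48 to 9.41 ± 0.823 CPM (log2 fold change −0.75, SD, n = 4). SLC19A1, the reduced folate carrier, was at −0.81 with overlapping ranges, and at −0.67 after TMM scaling, where it was not called (limma adjusted p = 0.0663).

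Of 14 regulators of cGAS, 4 were called higher and 1 lower. One of the former, OASL, met the minimum of 0.5 CPM through the cytokine libraries alone and so had to differ, and without it 3 of 13 were higher and 1 lower. Over all genes, 9.52% were higher and 17.5% lower. OASL, an interferon-induced protein that binds cGAS and inhibits it, was at 0.19, 0.04, 0.06 and 0.10 CPM in control libraries A to D and at 1.62, 1.88, 1.69 and 1.67 CPM in cytokine libraries A to D. Its control values rested on as few as 2 reads, and its fitted log2 fold change moved from 3.25 to 1.31 with a pseudocount of 1 and to 4.30 with DESeq2, so its size depends on the method. TRIM56, a ubiquitin ligase that acts on the pathway, rose from 36.2 ± 8.63 to 110 ± 25.0 CPM (log2 fold change 1.60, SD, n = 4). TRIM14, which protects cGAS from degradation, rose from 10.2 ± 0.869 to 21.1 ± 4.90 CPM (log2 fold change 1.02, SD, n = 4). AURKB, a mitotic kinase, was at −1.36 with overlapping ranges, and at −1.21 after TMM scaling, where it was not called (limma adjusted p = 0.0717).

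Of 20 genes for STING trafficking and control, 4 were called higher and 4 lower, and TMM scaling left 4 higher and 1 lower. That is 20% each way by limma, beside 9.52% higher and 17.5% lower over all genes. With TMM scaling, 2154 of all 16525 genes were higher and 1933 lower. RHBDF2, which encodes the scaffold iRhom2, rose from 11.0 ± 0.92 to 53.4 ± 11.3 CPM (log2 fold change 2.25, SD, n = 4). USP18, an interferon-induced protease that acts with USP20 on STING, rose from 12.6 ± 2.1 to 34.2 ± 5.94 CPM (log2 fold change 1.43, SD, n = 4). INSIG1, an endoplasmic reticulum protein of sterol control, rose by a log2 fold change of 0.69. NLRX1, a mitochondrial protein that restrains STING signalling, fell from 23.7 ± 1.52 to 12.7 ± 1.04 CPM (log2 fold change −0.90, SD, n = 4). ZDHHC1 was at −0.59 and TMEM203 at −0.56. After TMM scaling they were at −0.44 (limma adjusted p = 0.143) and −0.41 (limma adjusted p = 0.0489, under the 0.5 required), and neither was called.

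Of 16 adaptors and regulators of TBK1 and IKKε, 4 were called higher and none lower by limma (6 higher and 1 lower at an unadjusted p below 0.05; 6 higher and 0 lower by edgeR). The limma share was 25% higher, beside 9.52% of all genes. By edgeR, 13.0% of all genes were higher and 11.6% lower. The counts at an unadjusted p have no share over all genes beside them and are not read as results. OPTN, a ubiquitin-binding autophagy receptor that binds TBK1, rose from 110 ± 31.1 to 325 ± 84.1 CPM (log2 fold change 1.57, SD, n = 4). SQSTM1, an autophagy receptor that TBK1 phosphorylates, rose from 162 ± 27.4 to 445 ± 171 CPM (log2 fold change 1.40, SD, n = 4). TICAM1, the adaptor of TLR3, was at 0.63 with overlapping ranges. Of 4 listed targets of the kinases, 3 were called higher and none lower by limma (also 3 and 0 at an unadjusted p below 0.05 and by edgeR). The limma share was 75% higher, beside 9.52% of all genes. IRF7 rose from 17.1 ± 5.14 to 48.0 ± 6.70 CPM and IRF3 from 38.6 ± 2.03 to 61.7 ± 5.46 CPM (SD, n = 4), with log2 fold changes of 1.52 and 0.67. RELA, a subunit of NF-κB, was at 0.52, and IFNB1 and IFNL1 had no row and were not analysed here.

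**Figure D4:**
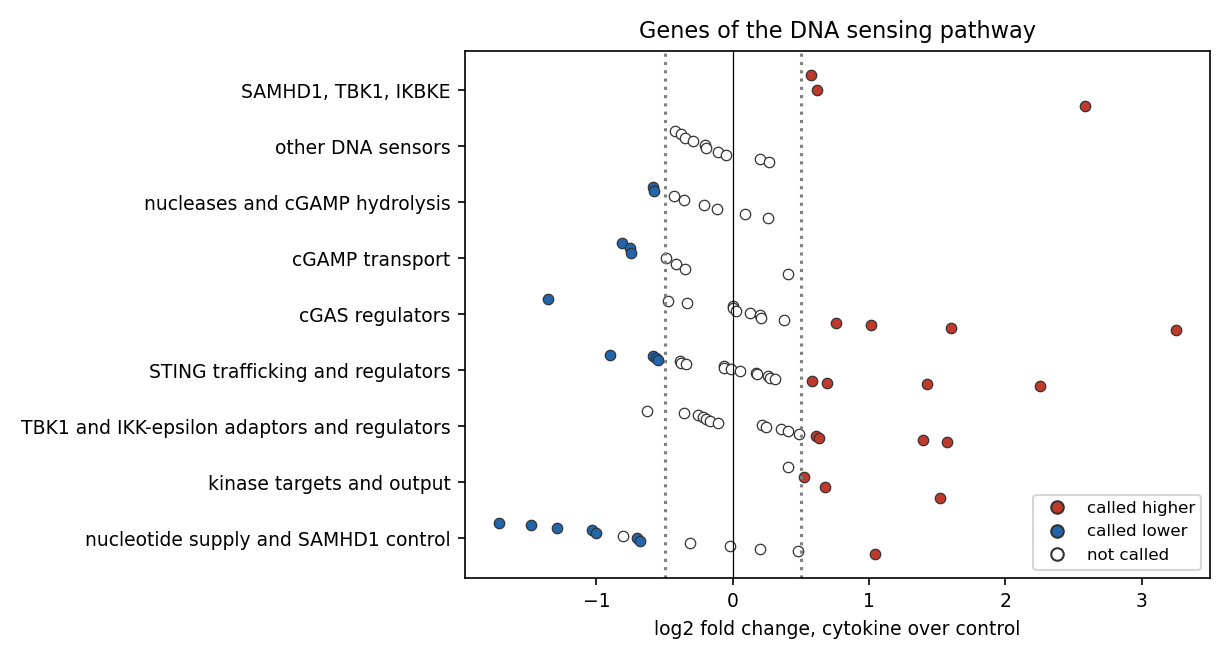
Log2 fold change of cytokine over control (x axis) for SAMHD1, TBK1 and IKBKE and for the 92 further genes in 8 lists (y axis), with 1 point per gene, red for called higher, blue for called lower and white for not called; dotted lines mark ±0.5. No point is filled among the other DNA sensors, and the adaptors and the kinase targets have filled points on the right only.

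The 8 values of each gene, each minus the mean of the gene on the log2 scale, were compared with those of 12629 protein-coding genes. The nearest to SAMHD1 were SLC35F1, NAMPT and APOBEC3G, at root mean square differences of 0.107, 0.117 and 0.152. For TBK1 they were MGA, CPEB2 and SPG11, at 0.0619, 0.0642 and 0.0649, and for IKBKE they were WASHC2C, EPG5 and ANK2, at 0.101, 0.103 and 0.104. NAMPT makes a precursor of NAD and APOBEC3G is an antiviral cytidine deaminase. Of these 9 genes, EPG5 was the only one not called higher (log2 fold change 0.48). They were chosen for values near those of genes called higher, so their calls follow from that choice. The nearest profiles are descriptions over 8 libraries that share the same conditions.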

How the data were processed

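RNA of 4 control and 4 cytokine libraries was prepared with a strand-specific mRNA kit and sequenced. Per the submitters' processing notes and the study's methods, the authors aligned the reads to GRCh38 with TopHat2 2.1.1, counted them on genes of an Ensembl annotation with HTSeq 0.9.1 at default settings, and required more than 0.5 CPM in 4 or more samples. The deposited table holds CPM, made by the authors as reads scaled to library totals; 4 further columns of the table match no sample used here and were left out. CPM values were whole multiples of 1 read in 100% of cases (tolerance 0.001), which gave back read counts for the count fits. Totals were 46767972 to 51145634 reads per library, and 20.1% to 26.6% of reads lay outside the listed genes; precision follows from 1 read being worth up to 0.0214 CPM and covers counting error only.

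Log2(CPM + 0.1) was fitted with limma 3.58.1 (R 4.3.3, intensity trend) over all 16525 genes with Benjamini-Hochberg adjustment. The main design held no block. Alternatives were TMM, median-of-ratios, quantile and GAPDH scaling, other pseudocounts (0.5, 1), a filter at a mean of 1 CPM, no trend, edgeR 4.0.16, DESeq2 1.42.0, a replicate block, the column sets, and leaving out each library. On simulated data of 16525 genes, limma, edgeR and DESeq2 each recovered 200 of 200 changed genes, with 6, 6 and 8 false calls. These counts hold for the simulated data only. Recovery of genes near the 0.5 required for a call was not tested in the measured libraries. The pairing was checked: deviations from group means correlated by 0.574, 0.590, 0.797 and 0.741 for A, B, C and D, and it comes from the name stems of the columns, where A and B could not be told apart (control A with cytokine B, 0.571). Single values and ratios were tested with the exact permutation test. TPM used recovered reads and GENCODE 29 exon lengths, which were found for 97.8% of genes. Sequences come from RefSeq (GRCh38.p14), where all 3 genes matched.

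The genes and lists were chosen with earlier results of these data known. The text names the called genes of each list, up to the 3 highest and 3 lowest, the 3 nearest profiles of each gene, and RRM1 and GAPDH where a ratio or a scaling uses them; DDX41, TLDC2 and the markers were named beside these after their values were seen.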

Additional observations from a re-analysis of the deposited data

Results flagged for a closer look

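Among 60 groups of 4 libraries tested, 3 held a library that stood far from the other 3, and chance flags about 5% of such groups. INSIG1 was at 171 CPM in control library C, above the 109 to 115 CPM of the other control libraries. RRM2 was at 69.3 CPM in control library D, with the next highest control library at 27.4 CPM. CCNA2 was at 14.5 CPM in control library D, with the next highest control library at 7.09 CPM.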

How the results depend on the processing

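SAMHD1 was called higher in every setting run, with log2 fold changes of 2.52 to 2.79 and 2.54 to 2.63 when 1 library was left out. TBK1 lost its call within libraries C and D (0.40), and ranged from 0.46 to 0.64 when 1 library was left out. IKBKE lost its call within C and D (0.71), and ranged from 0.51 to 0.75. With the replicate block, 16 pathway genes were higher and 18 lower, RRM1 being the added one, and the block changed no other call among these genes. Because each pair holds both conditions, the block leaves the fold changes as they were by design (SAMHD1 2.59, TBK1 0.57 and IKBKE 0.61). The limma adjusted p with the block was 3.47e-13 for SAMHD1, 0.000381 for TBK1 and 0.000365 for IKBKE. These pairs rest on the column name stems, where A and B could not be told apart. Of all genes, 1574 were higher and 2896 lower; the edgeR fit with TMM and the replicate block, added after the data were seen, gave 2607 higher, and lower genes numbered 1883 with median-of-ratios scaling, 1297 relative to GAPDH and 1918 with edgeR and TMM. Lower pathway genes went from 17 to 9 with TMM, median-of-ratios scaling and edgeR, 11 with quantile normalization, 5 relative to GAPDH and 11 to 16 without 1 library. Calls of lower genes made up 51.5% of the pathway calls, and 32.1% with TMM, beside 64.8% and 47.3% over all genes. OASL, which had to differ, is among these pathway calls. Of the called genes named from the pathway lists, leaving out 1 library ended the call of SLC19A1, AURKB, TMEM203 and TICAM1 in 5 of 8 cases each, of ZDHHC1, RELA and TK1 in 4, and of RNASEH2C (without cytokine D, −0.50) and DNASE1 (without cytokine C, −0.48) in 1. The IKBKE to TBK1 ratio changed sign, at −0.22 within A and B (0.31 within C and D) and from −0.13 to 0.19 without 1 library. The SAMHD1 to RRM1 ratio ranged from 3.13 to 3.63 without 1 library, where 4 against 3 libraries allow no p below 0.0571. With the longest transcript, TPM ratios were 1.52 for SAMHD1 to TBK1 in control libraries, 6.07 in cytokine libraries and 1.76 for TBK1 to IKBKE in cytokine libraries; without 1 library, the first ranged from 0.97 to 1.16. The cause of these shifts was not tested. Depth limits OASL, with 2 reads in 1 control library.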
